A study of Mus musculus with 4 samples.

Results

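The genes described here encode transmitter receptors, the proteins that release transmitter from synaptic vesicles, and the scaffold proteins beneath receptors. They were chosen by symbol from a table of 5282 genes: subunits of glutamate, GABA, glycine and nicotinic receptors, synaptotagmins, synapsins, SNARE proteins and their partners, active zone proteins, and the Shank, Homer, Dlg and Dlgap scaffolds. Of 59 name matches, 58 had a mean expression level of at least 1 over the 4 samples and are the members, with 24 receptors, 25 presynaptic or membrane fusion genes and 9 postsynaptic scaffold genes. All 58 are protein-coding genes. Chrnb3, at a mean level of 0.395, was just outside the minimum, and Syt15, at 1.00, was just inside it.

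RNA was measured in segments of cortex and corpus callosum of mice at postnatal day 15, with 2 samples from Pdgfra-creER;SmoM2 mice (SmoM2 below) and 2 from wild type mice (WT). Tamoxifen was given to every group from postnatal day 5 to day 7, so the WT samples carry that exposure too. SmoM2 is a constitutively active Smoothened, the transducer of the hedgehog signal, and the tamoxifen-inducible recombinase that switches it on is driven by Pdgfra, a gene of oligodendrocyte precursors and fibroblasts, whereas most members are known as genes of neurons. Smo itself rose, with 10.73 and 10.96 in SmoM2 against 7.12 and 5.75 in WT, and these levels do not separate the transgene from the native gene. The labels do not say whether each sample is 1 animal, so the spread between the samples of a group may be technical. The deposited table holds only genes with an unadjusted p of at most 0.05, so each member was already selected for a difference on these samples, and genes without a row were not analysed here. Its expression level is, as judged from the values, scaled for library size and gene length, in a unit (TPM or FPKM) that the sources do not give, and the depth is unknown. "Rose" and "fell" are used where the authors' deposited table has an adjusted p no higher than 0.05, and all changes are SmoM2 relative to WT.

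At a chemical synapse, calcium entry makes proteins such as SNAP-25 and synaptotagmin fuse the vesicle with the membrane, and the released glutamate, GABA or glycine opens receptor channels that scaffolds hold opposite the release site. In the postnatal forebrain receptors exchange subunits: NMDA receptors that hold GluN2B give way to ones that hold GluN2A. Oligodendrocyte precursors also carry glutamate and GABA receptors, and in bulk tissue fewer cells of a type and less RNA per cell cannot be told apart.

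Synaptic genes moved in both directions. By the authors' deposited table, of the 58 members 15 rose and 12 fell, 46.6% in all, and 31 did not pass. Over the 4845 listed genes that reach the same minimum level, this rule called 38.9%, with 22.0% higher and 16.9% lower, against 25.9% and 20.7% of the members. Receptors had 7 that rose and 4 that fell, presynaptic genes 4 and 6, and scaffold genes 4 and 2. The changes were small: the median absolute log2 fold change of the members was 0.34 in the authors' deposited table, against 0.41 over the listed genes. An absolute log2 fold change of at least 1 was reached by Gabrq, Grin2d and Syt15, all higher, which is 5.17% of the members against 8.09% of the listed genes. Positive fold changes made up 28 of 58, against 52.5% of the listed genes. With all members together the median log2 difference was -0.03 on the log2(level + 1) scale, against 0.25 over the listed genes. That median was 0.21 without WT replicate 2, 0.10 without SmoM2 replicate 1, 0.02 without SmoM2 replicate 2 and -0.05 without WT replicate 1, so no direction can be read from it.

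The groups did not overlap for 48 of the 58 members, or 82.8%, and for 85.0% of the listed genes. SmoM2 was the higher group for 28 of these members and the lower for 20, against 49.5% and 35.5% of the listed genes. All 15 that rose and 11 of the 12 that fell were among these, the exception being Stxbp3. The members that fell tended to have higher levels than those that rose. Their mean levels ran from 11.2 to 1460 with a median of 63.6, while those of the 15 that rose ran from 1.00 to 247.9 with a median of 14.2.

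**Figure D1:**
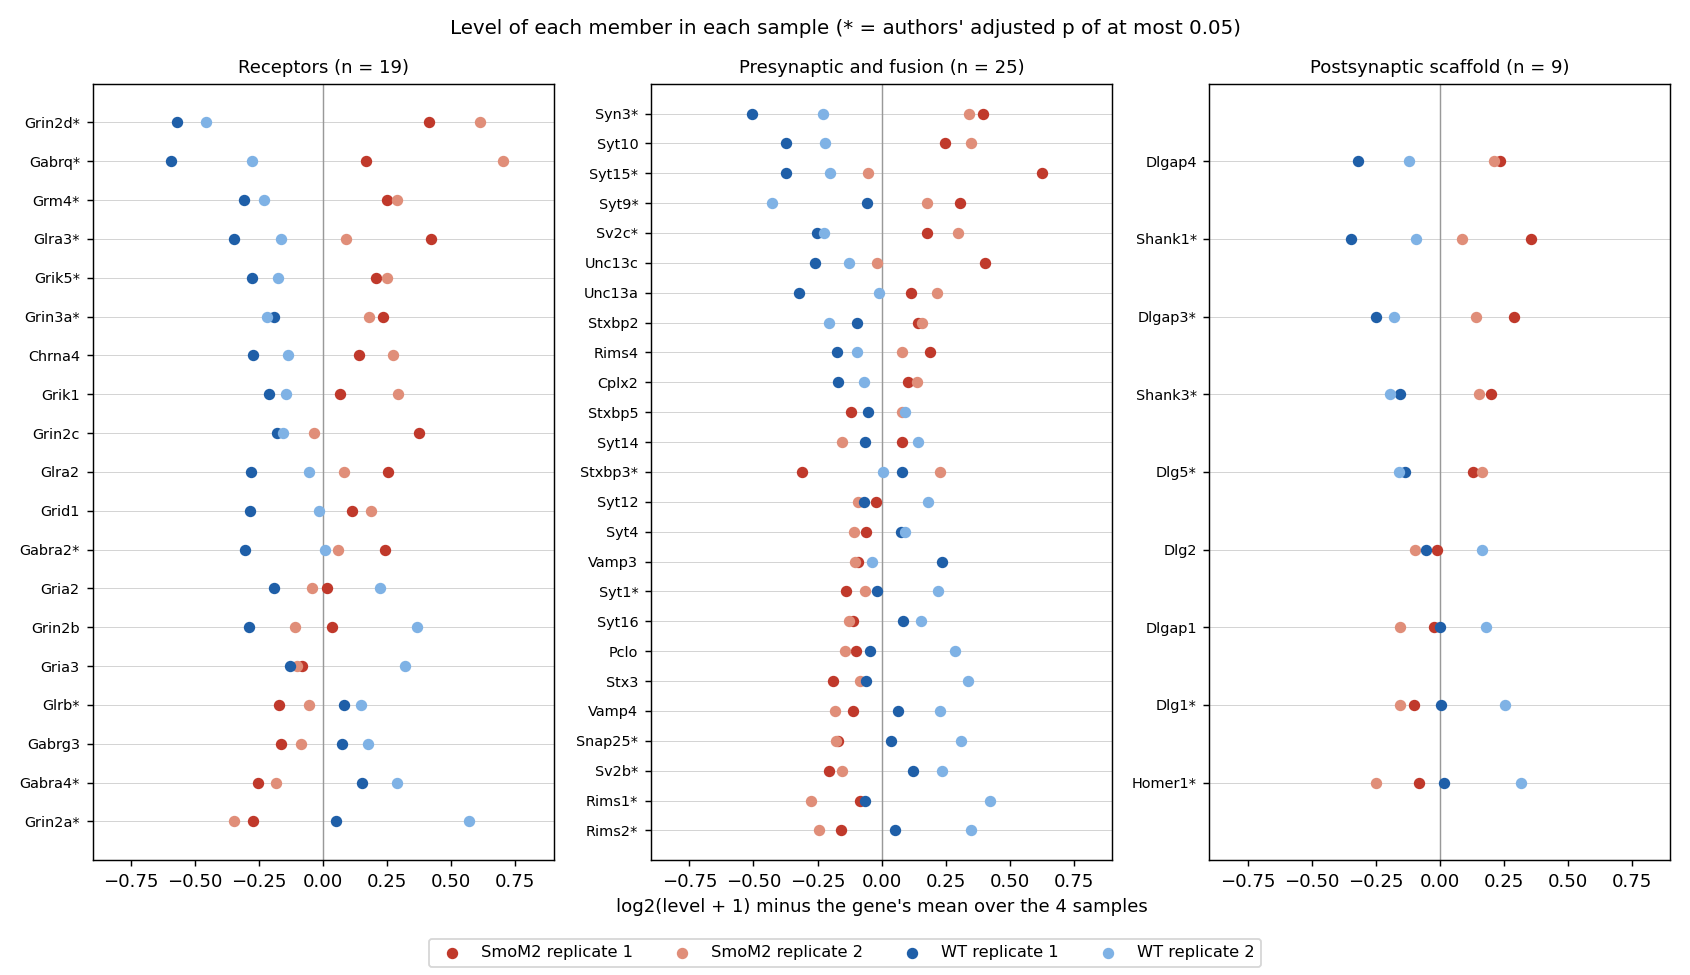
Level of 53 members in each of the 4 samples, as log2(level + 1) minus the mean of that gene over the samples (x axis), in 3 panels by role and sorted by the difference between groups. An asterisk marks the 26 of these called by the authors. WT replicate 2 (light blue) is the highest sample for 24 of the 26 with a negative difference, well beyond WT replicate 1 for many of them. Where a difference is negative, the highest sample is mostly a WT sample in any case.

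Among NMDA receptor subunits, Grin2d and Grin3a rose and Grin2a fell. Grin2d, which encodes GluN2D, a subunit of the young brain and of interneurons, had levels of 16.13 and 18.70 in SmoM2 and 7.68 and 8.38 in WT. Its means were 17.4 ± 1.82 and 8.03 ± 0.495 (SD, n = 2 each), a ratio of 2.17. Both SmoM2 samples lay far above both WT samples, and the log2 difference was 1.03 ± 0.15 (SE, limma on log2(level + 1)), and the authors' deposited table lists 1.05 with an adjusted p of 1.99e-15. Grin2a, which encodes GluN2A, the subunit of mature NMDA receptors, had levels of 8.74 and 8.23 in SmoM2 and 11.19 and 16.47 in WT. The SmoM2 samples were close together and below both WT samples, while the WT samples differed more from each other than the lower of them did from SmoM2. The log2 difference of Grin2a was -0.62 ± 0.20 (SE, limma), or -0.36 without WT replicate 2, and the authors' deposited table gives it an adjusted p of 7.48e-11. In GRCm38, Grin2d (ENSMUSG00000002771) lies on chromosome 7 and Grin2a (ENSMUSG00000059003) on chromosome 16.

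Grin3a, which encodes GluN3A, a juvenile subunit that lowers calcium permeability, read 27.13 and 26.10 in SmoM2 against 19.96 and 19.56 in WT. Replicates of Grin3a agreed closely, and its log2 difference of 0.41 stayed between 0.38 and 0.44 with any 1 sample left out. Its adjusted p in the authors' deposited table was 0.0486, only just under the threshold. Grin2b, the early forebrain subunit, read 25.67 and 23.14 in SmoM2 against 20.28 and 32.54 in WT; the groups overlapped and it did not pass (adjusted p = 0.529 in the authors' deposited table). Within a sample, the ratio of Grin2b to Grin2a was 2.94 and 2.81 in SmoM2 and 1.81 and 1.98 in WT. The ratio averaged 2.87 ± 0.0887 and 1.89 ± 0.116 (SD, n = 2 each). The ratio of Grin2d to Grin2a, like that of Sv2c to Sv2b given later, was chosen after the values were seen. It was 1.85 and 2.27 in SmoM2 and 0.686 and 0.509 in WT. Ratios of Grin2b to Grin2a within a sample did not overlap between groups, although Grin2b alone did. For Grin2d to Grin2a the lack of overlap was forced, since neither gene overlapped and they moved in opposite directions. With 2 samples against 2, no exact permutation test of a single value can reach 0.05, so these ratios are descriptions.

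The other glutamate receptors that rose were Grik5 and Grm4. Grik5, which encodes the kainate receptor subunit GluK5, read 167.26 and 172.49 in SmoM2 against 119.43 and 128.33 in WT, and Grm4, a presynaptic metabotropic receptor, read 16.78 and 17.28 against 11.08 and 11.76. Their log2 differences were 0.45 ± 0.09 and 0.54 ± 0.13 (SE, limma). The AMPA receptor genes Gria2 and Gria3 did not pass. Gria2, whose subunit blocks calcium entry, read 85.19 and 81.67 in SmoM2, inside the WT range of 73.71 to 98.50. Grik1, Grid1 and Grin2c were higher in both SmoM2 samples without passing, with log2 differences from 0.30 to 0.36. Of 13 glutamate receptor genes, 4 rose and 1 fell. These are 38.5% in all, where the same rule called 38.9% of the listed genes. By direction they are 30.8% and 7.69%, against 22.0% higher and 16.9% lower over the listed genes.

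GABA-A receptor genes moved in both directions. Gabra4, an α subunit of extrasynaptic receptors, fell from 48.07 and 53.08 in WT to 36.06 and 37.92 in SmoM2. Its log2 difference of -0.44 stayed between -0.51 and -0.37 with 1 sample left out.

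Gabra2, the α subunit of early receptors, rose, with levels of 30.18 and 26.52 in SmoM2 and 20.36 and 25.51 in WT. The lower SmoM2 sample was only a little above the higher WT sample, and the log2 difference of 0.30 ± 0.15 (SE, limma) was 0.14 without WT replicate 1 and 0.46 without WT replicate 2. Gabrq, which encodes the θ subunit, rose from a low level, with 1.56 and 2.71 in SmoM2 and 0.51 and 0.88 in WT. The authors' deposited table lists a log2 fold change of 1.49, the highest of any member. On the log2(level + 1) scale, which understates changes of low genes, it was 0.87 ± 0.30 (SE, limma). Gabrg3 did not pass (adjusted p = 0.312 in the authors' deposited table).

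Gabra2 and Gabra4, which changed in opposite directions, are neighbours. In the GENCODE M21 annotation of GRCm38, Gabra2 spans 70957597 to 71095849 and Gabra4 71569749 to 71658308 of chromosome 5, 473.9 kb apart on the minus strand.

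Glycine receptor genes also differed by subunit. Glra3, an α subunit, rose, with 2.53 and 1.80 in SmoM2 and 1.07 and 1.35 in WT. Glrb, the β subunit that anchors the receptor to gephyrin, fell, with 88.16 and 95.70 in SmoM2 and 105.45 and 110.41 in WT. Log2 differences were 0.51 ± 0.25 for Glra3 and -0.23 ± 0.09 for Glrb (SE, limma). Glra2, the fetal α subunit, read 24.16 and 21.34 in SmoM2 against 16.35 and 19.31 in WT without passing (adjusted p = 0.287 in the authors' deposited table). Chrna4, a subunit of the high-affinity nicotinic receptor, did not overlap between groups, at 20.53 and 22.63 in SmoM2 against 15.18 and 16.79, and just missed the threshold (adjusted p = 0.061 there). The median log2 difference of the 24 receptors was 0.30, against 0.25 over the listed genes. It was 0.16 without WT replicate 1, 0.17 without SmoM2 replicate 1, and 0.09 once the trend with GC content described below was removed.

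**Figure D2:**
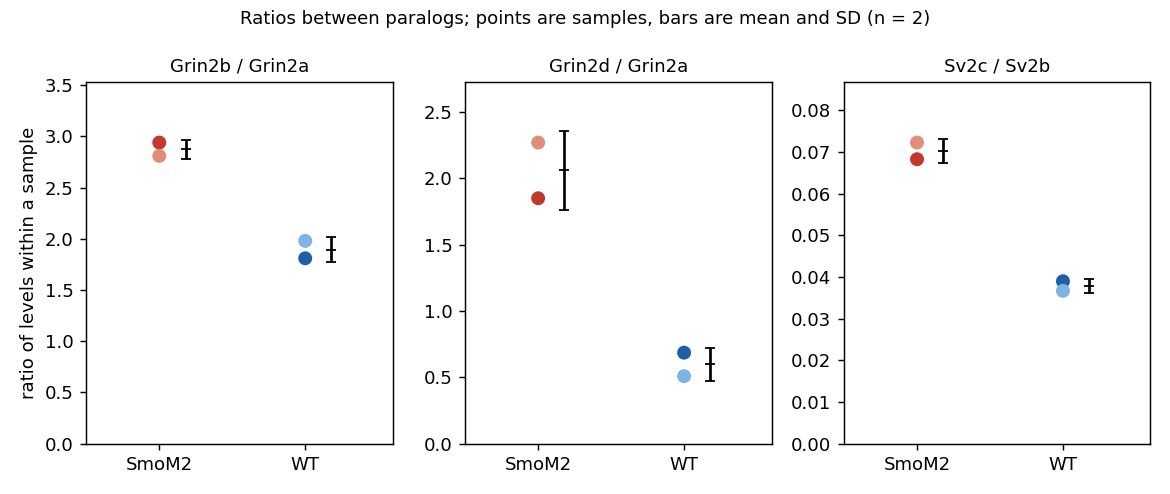
Ratio of the levels of related genes within each sample (y axis, from 0) for SmoM2 (red) and WT (blue); points are samples, and the bars beside them give the mean and SD (n = 2). The groups are apart in all 3 ratios, with Grin2d to Grin2a averaging 2.06 in SmoM2 and 0.598 in WT. For Grin2d to Grin2a and Sv2c to Sv2b this was forced by single genes that moved in opposite directions without overlap.

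Promoter sequences, which RefSeq gives for GRCm38.p6 as 250 bases before to 50 after a gene's start, were found for 38 of the 58 members. The hedgehog effector motif of the Gli factors (GACCACCCA, either strand) was in none of these 38 and in 0.289% of all 27025 genes with a promoter. The cAMP response element (TGACGTCA) was in 1 of 38, that of Stxbp3, and in 2.03% of all. The left part of the RE1 element of neuronal genes (TTCAGCACC) was in 1, that of Unc13a, and in 0.433% of all. The Sp1 box (GGGCGG), a motif of GC-rich promoters, was in 29 of 38, 76.3%, and in 38.2% of all. A gene was counted if any of its promoters matched, and the 38 members had 50 promoters. The share of all was not matched for gene type or number of promoters, so enrichment was not tested. Among members with a promoter, the Sp1 box was in 9 of 11 that rose and 7 of 8 that fell, so members of opposite direction shared it.

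Stretches of up to 88 bases upstream of the start are shown for paralogs that changed in opposite directions and share the Sp1 box, and for the single cAMP response element, in Stxbp3, a secretion gene that fell. They are written 5′ to 3′ on the strand of the gene, with the motif in capitals; CCGCCC is the Sp1 box on the opposite strand. Gabra2, which rose, is at chr5:71096009-71096094 (minus strand), and Gabra4, which fell, at chr5:71658485-71658558 (minus). Glra3, which rose, is at chr8:55940361-55940417 (plus), Glrb, which fell, at chr3:80913664-80913749 (minus), and Stxbp3 at chr3:108840563-108840650 (minus). A match of letters is a description and does not show binding, and no match says only that these letters are not in this window.
Gabra2: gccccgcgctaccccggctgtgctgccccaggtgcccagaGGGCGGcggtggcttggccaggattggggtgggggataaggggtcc
Gabra4: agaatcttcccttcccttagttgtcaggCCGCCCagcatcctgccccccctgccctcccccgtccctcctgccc
Glra3: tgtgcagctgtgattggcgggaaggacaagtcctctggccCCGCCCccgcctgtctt
Glrb: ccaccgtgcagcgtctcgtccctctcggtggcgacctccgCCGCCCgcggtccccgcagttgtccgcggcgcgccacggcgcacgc
Stxbp3: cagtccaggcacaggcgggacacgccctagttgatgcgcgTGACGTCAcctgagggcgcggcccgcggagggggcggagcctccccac

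On the presynaptic side, several abundant components of the release machinery fell. Snap25, the SNARE of the presynaptic membrane and the member with the highest level, read 1285.19 and 1277.42 in SmoM2 against 1485.02 and 1793.62 in WT. SmoM2 replicates were nearly equal and both lower than WT, and the log2 difference was -0.35 ± 0.12 (SE, limma), or -0.21 without WT replicate 2. Syt1, the calcium sensor of fast release, read 524.98 and 552.36 in SmoM2 against 571.16 and 672.35 in WT. Its log2 difference of -0.20 was -0.08 without WT replicate 2 and -0.32 without WT replicate 1. Sv2b, a vesicle glycoprotein, fell from 190.55 and 206.58 in WT to 151.81 and 157.00 in SmoM2. This was the steadiest of the presynaptic falls, with a log2 difference between -0.42 and -0.30 whichever sample was left out.

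Rims1 and Rims2, which organise the active zone where vesicles dock, fell as well. Rims2 read 42.00 and 39.54 in SmoM2 against 48.77 and 60.12 in WT, and Rims1 read 66.50 and 58.09 against 67.45 and 95.00. One WT sample of Rims1 was thus almost level with the higher SmoM2 sample. Without WT replicate 2 the log2 difference of Rims1 went from -0.36 to -0.12 and that of Rims2 from -0.40 to -0.25, and without WT replicate 1 that of Rims1 was -0.60. Rims4, a short member of the family, was higher in both SmoM2 samples without passing. Pclo, another large active zone protein, did not pass either, with 21.00 and 20.33 in SmoM2 against 21.83 and 27.78 in WT (adjusted p = 0.54 in the authors' deposited table).

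Other presynaptic members rose, mostly from low levels. Syn3, the synapsin of early neurons, read 6.87 and 6.58 in SmoM2 against 3.21 and 4.11 in WT, which gives a log2 difference of 0.74 ± 0.19 (SE, limma). Sv2c, a paralog of Sv2b that is typical of the basal ganglia, read 10.37 and 11.35 in SmoM2 against 7.43 and 7.59 in WT. The ratio of Sv2c to Sv2b was 0.0683 and 0.0723 in SmoM2 and 0.039 and 0.0367 in WT. It could not overlap, since neither gene did and they moved in opposite directions. Syt9, a calcium sensor of release, read 9.30 and 8.44 in SmoM2 against 7.03 and 5.20 in WT, and its log2 difference of 0.48 was 0.30 without WT replicate 2. Syt15 read 1.98 and 0.86 in SmoM2 against 0.49 and 0.68 in WT. SmoM2 replicate 1 stands far above the other 3 samples. The log2 difference of Syt15 was 0.57 with all samples, 0.23 without SmoM2 replicate 1 and 0.91 without SmoM2 replicate 2.

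Syt10 read 3.12 and 3.43 in SmoM2 against 1.68 and 1.98 in WT, a ratio of 1.79, and did not pass (adjusted p = 0.289 in the authors' deposited table). The synaptotagmins Syt4, Syt12, Syt14 and Syt16 had negative fold changes there and did not pass. Of the priming factors, Unc13a read 71.86 and 77.07 in SmoM2 against 52.73 and 65.69 in WT, and neither it nor Unc13c passed. Cplx2, the complexin that clamps SNARE complexes, read 491.77 and 503.67 against 406.41 and 436.91 without passing. Of 7 genes of SNARE proteins and syntaxin-binding proteins, Snap25 and Stxbp3 fell, and Stx3, Vamp3, Vamp4, Stxbp2 and Stxbp5 did not pass. The called share was 28.6%, against 38.9% of the listed genes. Median log2 difference over the 25 presynaptic members was -0.08, or 0.01 without WT replicate 2, -0.15 without SmoM2 replicate 1 and -0.14 without SmoM2 replicate 2.

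Stxbp3, a Munc18 protein of general secretion, is the called member whose levels overlapped between groups. It read 9.03 and 13.57 in SmoM2 against 12.14 and 11.49 in WT, and the log2 difference of its levels was -0.08 ± 0.20 (SE, limma). That difference was 0.19 without SmoM2 replicate 1, -0.35 without SmoM2 replicate 2 and -0.05 without WT replicate 1. The authors' deposited table lists it at -0.59 on the log2 scale, with 0.0277 as adjusted p. Its log2 fold change minus the log2 ratio of the level means is -0.52, against a median of -0.076 over the listed genes. A processed pseudogene, Stxbp3-ps, is annotated in GRCm38 and may share reads with it, which was not tested. Of the other members, Gria2, Syt12, Syt14, Syt9, Dlg5 and Gabra2 also lay more than 0.15 from that median, and no member had another sign in the levels than in the authors' fold change.

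Scaffold genes divided between Shank and Dlgap genes, which were mostly higher, and Homer1 and Dlg1, which fell. Shank3, a master scaffold of glutamate synapses, read 143.14 and 138.48 in SmoM2 against 111.72 and 108.76 in WT. Both groups were tight, and the log2 difference was 0.35 ± 0.08 (SE, limma). Shank1 read 89.41 and 74.03 in SmoM2 against 54.47 and 65.21 in WT. Dlgap3, which links the PSD-95 family to Shank, read 299.70 and 269.82 against 205.78 and 216.15, and had a log2 difference of 0.43 ± 0.09 (SE, limma). Dlg5, a scaffold of cell junctions and dendritic spines, rose from 15.72 and 15.47 to 19.11 and 19.62. Dlgap4 had a log2 difference of 0.44 and non-overlapping groups and did not pass (adjusted p = 0.108 in the authors' deposited table).

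Homer1, which joins metabotropic glutamate receptors to Shank, read 51.84 and 45.94 in SmoM2 against 55.46 and 68.58 in WT, and its log2 difference of -0.33 was -0.18 without WT replicate 2. Dlg1, which encodes SAP97, read 46.12 and 44.40 against 49.67 and 59.37, and its log2 difference of -0.26 was -0.13 without the same sample. Dlg2 and Dlgap1 did not pass. Over the 9 scaffold genes the median log2 difference was 0.30, against 0.25 over the listed genes, and -0.05 once the trend with GC content described below was removed.

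Direction of the members followed the base composition of their transcripts, as it did over the whole table. GC content, the percentage of G and C in the longest annotated transcript, had a median of 52.1% for the 15 members that rose and 43.6% for the 12 that fell. None of the 12 that fell was at 50% GC or above, and 9 of the 15 that rose were. Of the listed genes called higher, 940 were at 50% or above and 118 below. Of those called lower, 128 were at 50% or above and 684 below. The members that rose thus lay less on the high-GC side than the listed genes called higher. At 50% or above, 16 of 18 members had a positive fold change, 88.9%, and below 50% 12 of 40 did, 30.0%. Over all listed genes with an annotated transcript the shares were 87.9% of 2520 and 13.6% of 2280. The Spearman correlation of GC content with the log2 difference was 0.48 over the 58 members and 0.64 over the 4800 listed genes with a GC value. Genes share the same 4 libraries, so these are descriptions across genes, and whether base composition of the libraries plays a part in the differences was not tested.

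**Figure D3:**
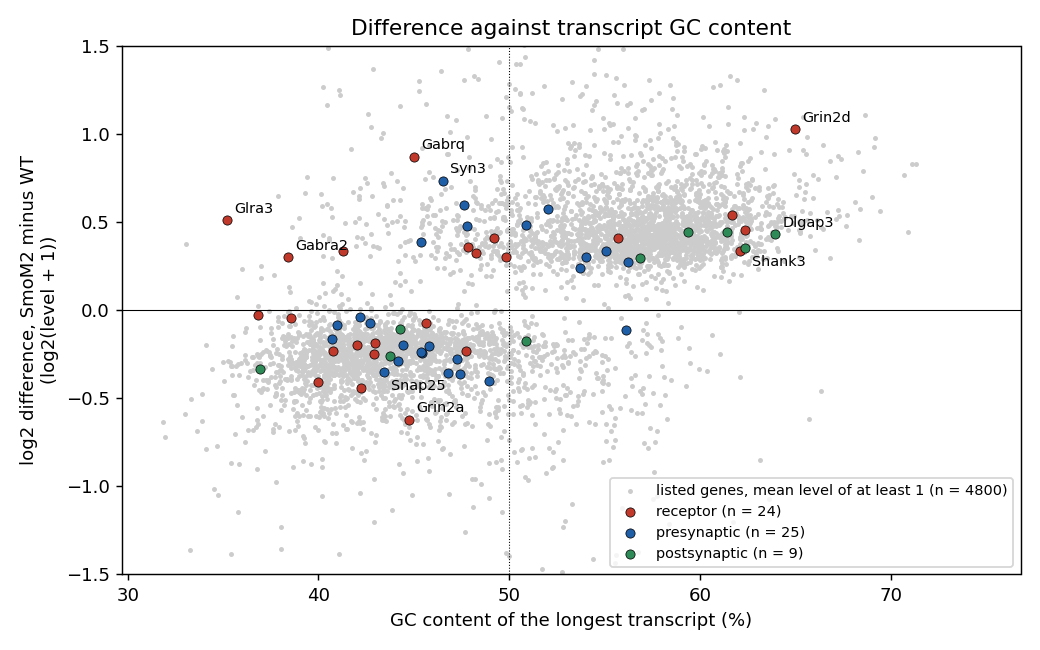
Log2 difference of levels between SmoM2 and WT (y axis) against the GC content of the longest transcript (x axis, percent) for 4800 listed genes (grey) and the members by role (colours); 87 listed genes lie beyond the y axis. Above 50% GC (dotted line) most genes are higher in SmoM2 and below it most are lower, while Glra3, Gabra2, Gabrq and Syn3 stand above zero on the low-GC side.

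When the trend of each sample with GC content was subtracted, a step added after the data were seen, 24 of the 58 members changed sign, 8 of them called. The trend was fitted to the listed genes alone, so its size is that of genes selected for a difference. After the step the Spearman correlation with GC content was 0.02 over the listed genes but -0.32 over the members, so for the members the step took away more than their own trend. The scaffold genes that rose ended below zero: Shank3 went from 0.35 to -0.16, Dlgap3 from 0.43 to -0.12, Dlg5 from 0.30 to -0.13 and Shank1 from 0.44 to -0.05, whose transcripts have 56.9% to 63.9% GC. Grik5 and Grm4, at about 62% GC, went to -0.06 and 0.04. On the other side, Syt1, Glrb, Homer1 and Dlg1 went to 0.00, 0.04, 0.01 and -0.02.

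Other members kept their sign. Grin2d, at 65.0% GC, kept 0.46 of its 1.03. Rims2 went from -0.40 to -0.39 and Grin2a from -0.62 to -0.40. Smaller values were left for Rims1 (-0.24), Sv2b (-0.20), Gabra4 (-0.19) and Snap25 (-0.11). Of the 6 members under 50% GC that rose, Gabra2 (0.61), Glra3 (0.89), Gabrq (1.09), Syn3 (0.91) and Sv2c (0.58) had larger values after the step, and Grin3a went from 0.41 to 0.40. Glra2, which the authors' rule did not call, had 0.60. With the trend removed, Gabra2, Glra2 and Syn3 passed an adjusted p of 0.05 in the limma recalculation, which called no member on the levels as deposited. Over the listed genes, 90 higher and 121 lower passed with the trend removed.

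**Figure D4:**
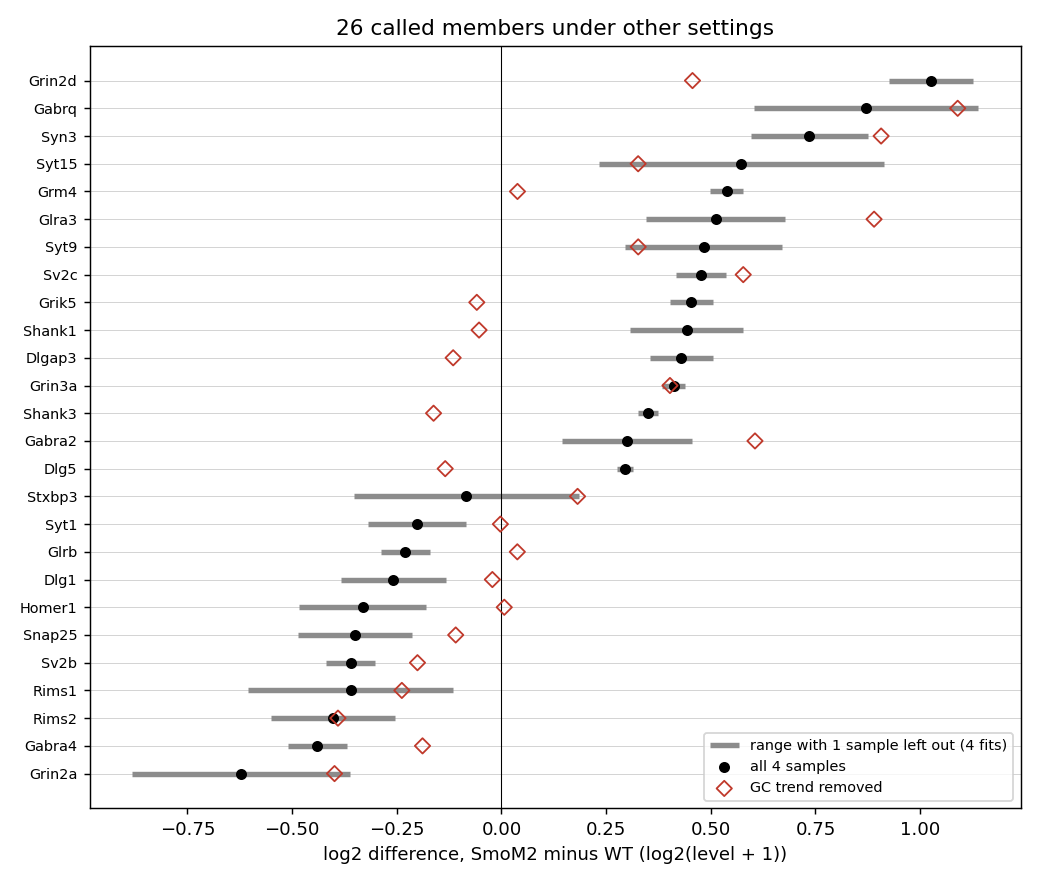
Log2 difference between SmoM2 and WT (x axis, log2(level + 1)) for 26 called members (y axis): all 4 samples (black points), range of the 4 fits that leave out 1 sample (grey bars) and the value with the GC trend removed (red diamonds). Diamonds of the scaffold genes Shank3, Shank1, Dlgap3 and Dlg5 lie left of zero, whereas those of Gabrq, Glra3, Syn3 and Gabra2 lie to the right of the black points.

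WT replicate 2 stood apart for synaptic genes. It was above WT replicate 1 for 51 of the 58 members, 87.9%, against 62.2% of the listed genes, with a median log2 difference between the 2 WT samples of 0.17 for the members and 0.07 for the listed genes. It was the highest of the 4 samples for 11 of the 12 members that fell. The groups of those 11 did not overlap, so only a WT sample could be the highest. Over the 4845 listed genes WT replicate 2 was the highest for 1633 and WT replicate 1 for 615. Without WT replicate 2, the median log2 difference of the 12 that fell went from -0.35 to -0.20. That of the 15 that rose went from 0.48 to 0.50. Spread between the SmoM2 samples was smaller, with a median absolute log2 difference of 0.08 over the members, against 0.18 between the WT samples. Over the listed genes these values were 0.13 for SmoM2 and 0.16 for WT. Without WT replicate 2, 7 members changed sign, none of them called; Gria2, Gria3, Grin2b, Stxbp5, Syt12 and Syt14 were among them.

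Markers of other cells and regions differed between the groups alongside these genes. All 8 oligodendrocyte markers fell, with summed levels of 2747 to 3114 in SmoM2 and 5357 to 5706 in WT. All 7 olfactory bulb markers rose, with sums of 184.5 and 122.6 in SmoM2 and 81.5 and 63.0 in WT. Calb2 made up most of these sums, at 122.72 and 107.63 in SmoM2 and 70.04 and 52.54 in WT. Levels of Th, Tbx21 and Eomes overlapped between the groups, and those of Calb2, Cdhr1, Doc2g and Shisa3 did not. Th read 10.28 and 2.65 in SmoM2 against 2.97 and 3.43 in WT. The sum was highest in SmoM2 replicate 1, where Doc2g read 21.44 against 3.93 in the other SmoM2 sample. SmoM2 replicate 1 was the highest sample for 15 of the 58 members and for 1207 of the 4845 listed genes, a similar share. Without it the log2 differences of Glra3, Unc13c, Grin2c, Shank1 and Syt15 were 0.34, 0.18, 0.13, 0.31 and 0.23, while those of Syn3, Shank3 and Grin3a were 0.71, 0.33 and 0.38, close to their values with all samples.

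Of 7 striatal markers, Adora2a and Penk were in the table, both rose, and their sums of 126.9 and 260.3 in SmoM2 overlapped the 174.0 and 74.8 of WT. Among 9 inhibitory neuron markers, 6 had values: Sst, Slc32a1 and Dlx1 rose, Pvalb and Vip fell and Dlx2 did not pass. Their sums were 883 to 1000 in SmoM2 and 696 to 770 in WT. Most of each sum was Sst, at 708.63 and 816.36 in SmoM2 and 622.61 and 533.90 in WT. Of 9 excitatory neuron markers 3 had values, Cux2 rose and Neurod6 fell, and their sums were 148 to 154 in SmoM2 and 172 to 185 in WT. Among 9 general neuronal markers, Tubb3 rose and Stmn2 did not pass. Of 6 astrocyte markers 3 had values, Gfap and Aqp4 rose and Slc1a2 fell. Of 5 hippocampal markers 4 had values, Cpne7 and Wfs1 rose and Prox1 fell, and the 1 of 7 thalamic and hindbrain markers with values did not pass. All 5 choroid plexus markers fell and all 5 markers of meningeal fibroblasts rose. No marker with a value was at 0 in all 4 samples, and the part of these cells and regions in the synaptic differences was not tested.

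Other synaptic genes, outside the naming rule, were counted in 3 lists, and no difference between a list and the rest of the table was tested. Of 25 receptor partners 11 had values, of which 5 rose and 1 fell, where 22.0% of all listed genes rose and 16.9% fell. Cacng5 and Cacng8, auxiliary subunits of AMPA receptors, rose, with Cacng8 at 107.59 and 107.16 in SmoM2 and 63.36 and 72.94 in WT. Nlgn2, the neuroligin of inhibitory synapses, rose as well. Of 34 release partners 14 had values, 7 rose and none fell. Nrxn2, a presynaptic adhesion receptor, read 419.83 and 398.38 in SmoM2 against 212.63 and 291.49 in WT, and Slc32a1, the vesicular GABA transporter, read 81.67 and 100.53 against 53.37 and 51.92.

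Of 22 postsynaptic signalling genes 7 had values, Begain rose, and Cnksr2, Abi2, Ppp3ca and Kalrn fell. Ppp3ca, a catalytic subunit of calcineurin, read 336.69 and 396.27 in SmoM2 against 442.05 and 508.96 in WT. Median log2 differences of these 3 lists were 0.38, 0.43 and -0.24, against 0.25 over the listed genes, and with the GC trend removed they were 0.01, 0.15 and -0.12. Grin1, Dlg4, Vamp2 and Gphn were not analysed here.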

How the data were processed

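The authors made 1 deposited table of 5282 genes; The submitters' processing notes list RSEM, DESeq2 and GRCm38.p6 and give neither versions nor what each was used for. The series text names a log2 fold change cutoff of 1, which most listed genes do not reach. For each of the 4 samples the deposited table gives an expression level, a length-scaled signal whose unit is not stated, beside the authors' group means, fold change as a ratio, log2 fold change, p-value and adjusted p-value. The adjusted p-values imply 57010 tests. Summed over the table, levels per sample ran from 469062 to 512833. Columns were tied to samples by the series text.

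Members and lists were chosen with earlier results of these data known. Calls are the authors' adjusted p of at most 0.05. limma 3.58.1 (R 4.3.3) on log2(level + 1), fitted over the 4845 genes reaching a mean of 1 with a trended prior variance, gave differences and standard errors; its adjusted p used 57010 tests. It was tested on simulated data. Named with values were, in each subfamily, the called member of largest fold change and the member of highest level, plus subunit pairs and Grin1, Gphn, Dlg4, Snap25, Syt1 and Vamp2 where listed; this gave 34 genes, and other members were named after their values were seen. GC content came from the longest GENCODE M21 transcript, which all 58 members have; the trend was a lowess fit with a span of 0.3. Alternatives were pseudocounts of 0.1 and 5, level minimums of 0 and 5, other scalings, stricter calls, a replicate block and leaving out each sample. Some members enter every count and median but are not reported here by name or drawn in the plots that name genes.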

Additional observations from a re-analysis of the deposited data

How the results depend on the processing

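Counts of called members, 15 higher and 12 lower, became 6 and 2 when an authors' fold of at least 1.5 was also asked for, and 7 were lower at an adjusted p of at most 0.01. With no minimum level, a minimum of 5, non-overlapping groups or the sign of the levels, they stayed within 1.5 times. Scaling to equal medians moved the median of all listed genes from 0.251 to 0.161 and quantile normalization to 0.126, and no member changed sign under either. The median log2 difference of all members, -0.03, was -0.15 with quantile normalization, -0.13 with equal medians and between -0.05 and 0.21 with a sample left out. For receptors it was 0.30, 0.13 with a minimum level of 5, 0.09 with the GC trend removed and 0.16 to 0.36 with a sample left out. For presynaptic members it was -0.08, -0.20 with quantile normalization, -0.17 with equal medians or a minimum level of 5, and -0.15 to 0.01 with a sample left out. For scaffold genes it was 0.30, 0.24 with a pseudocount of 5, 0.21 with quantile normalization, 0.20 with equal medians, -0.05 with the GC trend removed and 0.28 to 0.31 with a sample left out. The causes were not tested.

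The limma recalculation called 0 members in either direction at an adjusted p of 0.05. An unadjusted p under 0.05 was found for 29 of the 58 members, 19 higher and 10 lower. Over the 4845 listed genes it was found for 2687, with 1970 higher and 717 lower. With quantile normalization 4 members were called higher and 8 lower, against 562 and 602 listed genes. With equal medians 6 and 10 members were called, against 638 and 575 listed genes. When p was adjusted over the genes in the fit, which are fewer tests, 9 and 2 members were called, against 1293 and 326. With the GC trend removed 3 and 0 were called, against 90 and 121. A replicate block on the numbers in the titles called 0 members, and 10 listed genes, in each direction. Those title numbers do not pair the samples by the labels, and deviations of same-numbered samples had a correlation of -0.093 over 4845 genes. Leaving out a sample cannot move a value by more than the spread between replicates as defined here, and a minimum level leaves it unchanged. These settings could therefore show no move beyond that spread. Of the 34 named members, 8 stayed within it with the GC trend removed, 21 with quantile normalization and 24 with equal medians. With pseudocounts of 0.1 and 5, 31 and 26 did. The totals over all alternatives include the settings that could show no move, so they do not measure stability. There were 371 values, of which 310 stayed within the spread. Another 53 moved by more, and 8 were sign changes of called members. The 8 were Dlg5 (-0.13), Dlgap3 (-0.12), Glrb (0.04), Grik5 (-0.06), Homer1 (0.01), Shank3 (-0.16) and Stxbp3 (0.18) with the GC trend removed, and Stxbp3 without SmoM2 replicate 1; with a sample left out Stxbp3 ran from -0.35 to 0.19. Uncalled named members also changed sign and are among the others, including Cplx2, Unc13a, Dlg2, Gria2, Grin2b and Stxbp5 with the GC trend removed, and Gria2, Grin2b and Stxbp5 without WT replicate 2, and Stxbp5 without SmoM2 replicate 1. Depth is unknown, so counting error could not be set beside these values.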
